A study of Mus musculus with 8 samples.

Results

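The genes described here are 5 sialyltransferase genes, St6galnac3, St3gal6, St6gal1, St3gal1 and St8sia4, chosen by symbol from the 32285 genes of the count matrices. They had been proposed with results of these data in view, and which comparison led to the choice is not recorded, so their levels and differences are given as a description and the test results as those of a fit over all genes. The mouse has 20 genes of this family in the matrices, of which 18 had at least 1 UMI (unique molecular identifier, 1 captured transcript) in the cells used. The 5 genes held 60.2% of the 76640 UMIs of the family. All 5 passed the filter on low counts in each of the 8 comparisons tested.

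CD8+ T cells of 3 donor mice were activated and co-cultured with bone marrow stromal cells (BMSCs) whose mitochondria carry the red fluorescent protein dsRed, and the T cells were sorted by flow cytometry into dsRed+ cells that had taken up BMSC mitochondria (MitoPositive) and dsRed-negative cells of the same co-culture (MitoNegative). Part of the sorted cells went straight into droplet single-cell RNA sequencing (day 0, culture), and the rest was transferred into B6 mice bearing B16KVP tumors and taken back from tumor and spleen on day 7. The groups are therefore MitoPositive and MitoNegative cells from tumor, from spleen and from culture, with 3 donors in each, told apart by hashtag antibodies. The names of the arms refer to uptake at the sort on day 0 and not to a state measured again on day 7. Day 0 was 1 library and each donor was 1 library on day 7, so day and library cannot be told apart, and the MitoPositive and MitoNegative cells of a donor carry different host codes in the hashtag list, so arm and recipient cannot be told apart within a donor.

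Of 18092 barcodes, 16364 cells entered the sums over the 18 hashtagged samples. Samples held 30 to 3421 cells and 323344 to 26516196 UMIs. The smallest were the tumor MitoNegative samples, with 30, 85 and 112 cells for donors 1, 2 and 3, and the spleen MitoPositive sample of donor 3, with 49 cells. Cell barcodes shared by several libraries numbered 21 among the cells used. Markers of CD8 T cells summed to 8220 to 12602 CPM (UMIs of a gene in 1000000 UMIs of the sample) in every sample, and of the CD4 T cell markers Cd4 averaged at most 6.06 CPM and Foxp3 at most 1.85 CPM in any group. The sum of the 5 genes of that list was nevertheless 610.3 to 814.8 CPM in tumor, 120.4 to 183.5 CPM in spleen and 342.3 to 488.7 CPM in culture samples, from Ctla4, Tnfrsf4 and Icos, receptors that activated CD8 T cells are known to express too. B cell markers summed to 1673 CPM in the spleen MitoPositive sample of donor 2 and to 2736 CPM in the spleen MitoNegative sample of donor 3, against at most 292 CPM in every other sample, and myeloid markers reached 971 CPM in the spleen MitoPositive sample of donor 3.

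Sialic acids are acidic sugars that cap the glycans of cell surface proteins and lipids. Sialyltransferases of the Golgi take them from the activated form CMP-sialic acid and join them to the third carbon of galactose (St3 enzymes), to the sixth carbon of galactose or N-acetylgalactosamine (St6 enzymes) or to the eighth carbon of another sialic acid (St8 enzymes). On T cells these caps mask galactose from lectins, form part of the ligands of selectins, which guide cells through vessel walls, and change with activation.

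The loci and the start-site windows of the genes are shown first, since the 5 genes fall into different patterns below. In GRCm38, St6galnac3 lies on chromosome 3 from 153198266 to 153725174 on the minus strand, and its 526909 bp are 1.71% exonic in the GENCODE vM21 annotation. St3gal6 lies on the minus strand of chromosome 16 from 58468125 to 58524243, and St6gal1 on the plus strand of the same chromosome from 23224740 to 23360350. St3gal1 is on the minus strand of chromosome 15, from 67102875 to 67176830, and St8sia4 on the minus strand of chromosome 1, from 95587682 to 95667571, with 25.1% of its length exonic. St3gal6 overlaps Dcbld2 and St6gal1 overlaps BC106179, both on the opposite strand, and St6galnac3 holds 1700012D16Rik and 1700015C17Rik in its introns on its own strand. Whether counting used strand or introns is not given in the sources used here, so reads of these neighbours may be part of the values.

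RefSeq windows of 300 bases on GRCm38.p6, from 250 bases before to 50 after an annotated start, were found for 4 of the 5 genes, 7 windows in all. The 4 windows printed are those of the gene that was higher in tumor (St6galnac3) and of the pair whose levels ran closest together over the samples (St3gal6 and St8sia4), 5′ to 3′ in the direction of the gene. Capitals mark letters that match TGGAAAA (NFAT), TGTGGTT (RUNX) or CCNCACCC (KLF), searched on both strands beside TGANTCA (AP-1), GGTGTGA (T-box), CTTTGAA (TCF/LEF) and CAGGAAGT (ETS).
St6galnac3, chr3:153725084-153725383, minus strand: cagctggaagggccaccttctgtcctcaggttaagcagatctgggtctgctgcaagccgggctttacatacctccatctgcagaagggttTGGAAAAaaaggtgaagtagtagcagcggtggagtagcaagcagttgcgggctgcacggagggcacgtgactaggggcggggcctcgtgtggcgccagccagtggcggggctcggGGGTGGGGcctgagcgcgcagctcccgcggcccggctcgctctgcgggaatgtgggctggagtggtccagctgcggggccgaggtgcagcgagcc
St3gal6, chr16:58524204-58524503, minus strand: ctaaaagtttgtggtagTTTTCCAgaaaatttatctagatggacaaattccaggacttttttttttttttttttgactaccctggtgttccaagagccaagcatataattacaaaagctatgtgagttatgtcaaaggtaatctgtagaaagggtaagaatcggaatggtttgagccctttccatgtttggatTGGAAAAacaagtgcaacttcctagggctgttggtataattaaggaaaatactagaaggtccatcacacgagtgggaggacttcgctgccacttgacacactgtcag
St3gal6, chr16:58523377-58523676, minus strand: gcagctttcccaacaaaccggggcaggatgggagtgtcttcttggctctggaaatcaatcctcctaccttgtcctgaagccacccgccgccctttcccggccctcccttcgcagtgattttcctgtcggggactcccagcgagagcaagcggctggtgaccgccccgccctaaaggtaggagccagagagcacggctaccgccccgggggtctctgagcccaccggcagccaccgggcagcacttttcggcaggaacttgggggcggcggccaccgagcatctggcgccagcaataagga
St8sia4, chr1:95667545-95667844, minus strand: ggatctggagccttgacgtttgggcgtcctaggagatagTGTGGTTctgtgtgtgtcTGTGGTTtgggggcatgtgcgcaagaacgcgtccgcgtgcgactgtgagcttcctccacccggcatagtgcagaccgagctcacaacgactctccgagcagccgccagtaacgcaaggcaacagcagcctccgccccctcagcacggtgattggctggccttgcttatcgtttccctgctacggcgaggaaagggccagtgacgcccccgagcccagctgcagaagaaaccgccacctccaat
The St6galnac3 window had 66% G and C and held 1 NFAT match at -160 from the start and 1 KLF match at -45. The outer St3gal6 window had 38.7% G and C and 2 NFAT matches, at -233 and -57, while the inner one had 64.7% G and C and none of the 7 motifs. The St8sia4 window had 61.3% G and C and 2 RUNX matches, at -211 and -193. Over all 32544 windows the median was 53% G and C, and NFAT letters stood in 6.71% of them, RUNX in 5.29% and KLF in 16.7%. A match describes these letters and is no measured binding site.

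The comparison made at day 0 set T cells that had just taken up BMSC mitochondria against cells of the same culture without uptake. The mean level of St6galnac3 in MitoPositive cells was 0.486 times that in MitoNegative cells, and St8sia4 was higher in MitoPositive cells. St6galnac3 encodes an enzyme that puts sialic acid on N-acetylgalactosamine of glycans that already carry a sialic acid, and St8sia4 encodes the polysialyltransferase that builds chains of sialic acid. St3gal6, St6gal1 and St3gal1 did not pass the test in the main fit, which has no donor block although the same donors gave both arms. With the donor as a block St3gal6 and St6gal1 passed, as given below. The 2 genes called in the main fit, of 5, stand beside 9.26% of the 11436 genes tested that were called in it, 6.03% higher and 3.23% lower.

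St6galnac3 stood at 102.9, 107.9 and 64.7 CPM in MitoPositive samples of donors 1, 2 and 3, against 190.04, 184.1 and 193.1 CPM in MitoNegative samples. All 3 MitoPositive samples lay below all 3 MitoNegative ones, and donor 3 had the lowest MitoPositive value. The edgeR log2 fold change was -1.01 ± 0.13 (SE, n = 3 against 3), with an adjusted p of 0.000700. A lower summed level can come from fewer cells with the transcript or from fewer transcripts per cell, which sums over a sample cannot tell apart. St8sia4 stood at 170.8, 196.9 and 177.3 CPM in MitoPositive samples, against 129.5, 107.6 and 128.6 CPM in MitoNegative samples. The groups did not overlap, and the log2 fold change was 0.62 ± 0.09 with an edgeR adjusted p of 0.000942.

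St3gal6, whose enzyme caps galactose on glycans that become selectin ligands, stood at 40.4, 45.9 and 48.8 CPM in MitoPositive samples, against 28.2, 38.8 and 38.8 CPM in MitoNegative samples. Its value was higher in MitoPositive cells of 3 of 3 donors, with a log2 fold change of 0.40 ± 0.13 and an edgeR adjusted p of 0.0706. With the donor as a block, St3gal6 had a log2 fold change of 0.39 ± 0.08 and an adjusted p of 0.000702. St6gal1, which adds sialic acid to galactose of N-glycans, ran at 90.6, 81.1 and 41.6 CPM in MitoPositive samples, against 113.9, 85.3 and 67.8 CPM in MitoNegative samples. Donor 3 was lowest in both arms, and the groups overlapped. The log2 fold change was -0.30 ± 0.22 with an edgeR adjusted p of 0.464, and with the donor as a block it was -0.31 ± 0.08 with an adjusted p of 0.00383. The same donor mice gave both arms, and the blocked fit called 4 of the 5 genes where the fit without it called 2, beside 20.1% of all genes called with the block.

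St3gal1, the enzyme that caps the core galactose of O-glycans and that naive mouse CD8 T cells need to survive, did not pass the test either. It had 52.95, 44.2 and 43.2 CPM in MitoPositive samples and 48.1, 46.7 and 49.98 CPM in MitoNegative samples. The log2 fold change was -0.01 ± 0.09 (edgeR adjusted p = 0.962).

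Lists of other genes of the pathway (other sialyltransferases, sialic acid supply, sialidases, O-glycan and N-glycan synthesis, sialylated carriers) held 79 genes, of which 49 were tested at day 0, 2 being higher and 3 lower in MitoPositive cells. St3gal2, a sialyltransferase of O-glycans and gangliosides, rose by 0.73 ± 0.21 on the log2 scale, at 5.72 ± 0.324 CPM in MitoPositive cells, against 3.55 ± 0.285 CPM in MitoNegative cells (mean ± SD, n = 3 each). Cd44, an adhesion receptor that is high on activated T cells, rose by 0.74 ± 0.11. The hydroxylase Cmah, which turns the sialic acid Neu5Ac into Neu5Gc, fell by 0.80 ± 0.15, to 230.8 ± 62.9 CPM in MitoPositive cells, against 411.3 ± 58.4 CPM in MitoNegative cells. Ccr7, a chemokine receptor of lymph node homing, fell by 0.37 ± 0.10, and Cd8b1, the beta chain of the CD8 coreceptor, fell by 0.27 ± 0.08.

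Cell cycle genes and a few markers of other cells moved with the arms at day 0. Of 22 G2/M genes tested, 22 were higher in MitoPositive cells, and their sums were 763.1 to 1216 CPM in MitoPositive and 287.9 to 496.8 CPM in MitoNegative samples. Of 21 S phase genes tested, 16 were higher. Of 3 tested markers of NK and gamma delta T cells, Tcrg-C2 and Trdc rose by 0.91 ± 0.26 and 0.74 ± 0.16 and Klre1 fell by 0.98 ± 0.21, the list summing to 66.3 to 93.3 CPM in MitoPositive and 53.5 to 59.3 CPM in MitoNegative samples. Icos, 1 of 3 tested CD4 T cell markers, rose by 0.30 ± 0.07, and Ighm, 1 of 2 tested B cell markers, fell by 0.41 ± 0.12, with B cell sums of 134.8 to 191.4 CPM in MitoPositive and 182.8 to 245.4 CPM in MitoNegative samples. The part of these markers in the result was not tested. Without the cycling clusters the log2 fold change of St6galnac3 was -0.94 ± 0.11 and that of St8sia4 was 0.64 ± 0.08, and St3gal6, at 0.49 ± 0.12, passed with an edgeR adjusted p of 0.0320. St3gal6 also passed with each cell thinned to 2000 UMIs and cells with fewer dropped, at 0.66 ± 0.17 and an edgeR adjusted p of 0.0186. Without the MitoPositive sample of donor 1 it passed at 0.47 ± 0.12 and an edgeR adjusted p of 0.0188. The sources disagree on which hashtags mark the arms at day 0: the deposited hashtag list and the series' design text give the map used here, and the labels' protocol gives another. Under that other map edgeR called none of the 5 genes and 0 of all genes, and the log2 fold changes were -0.16 ± 0.38 for St6galnac3 and 0.24 ± 0.22 for St8sia4.

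**Figure D1:**
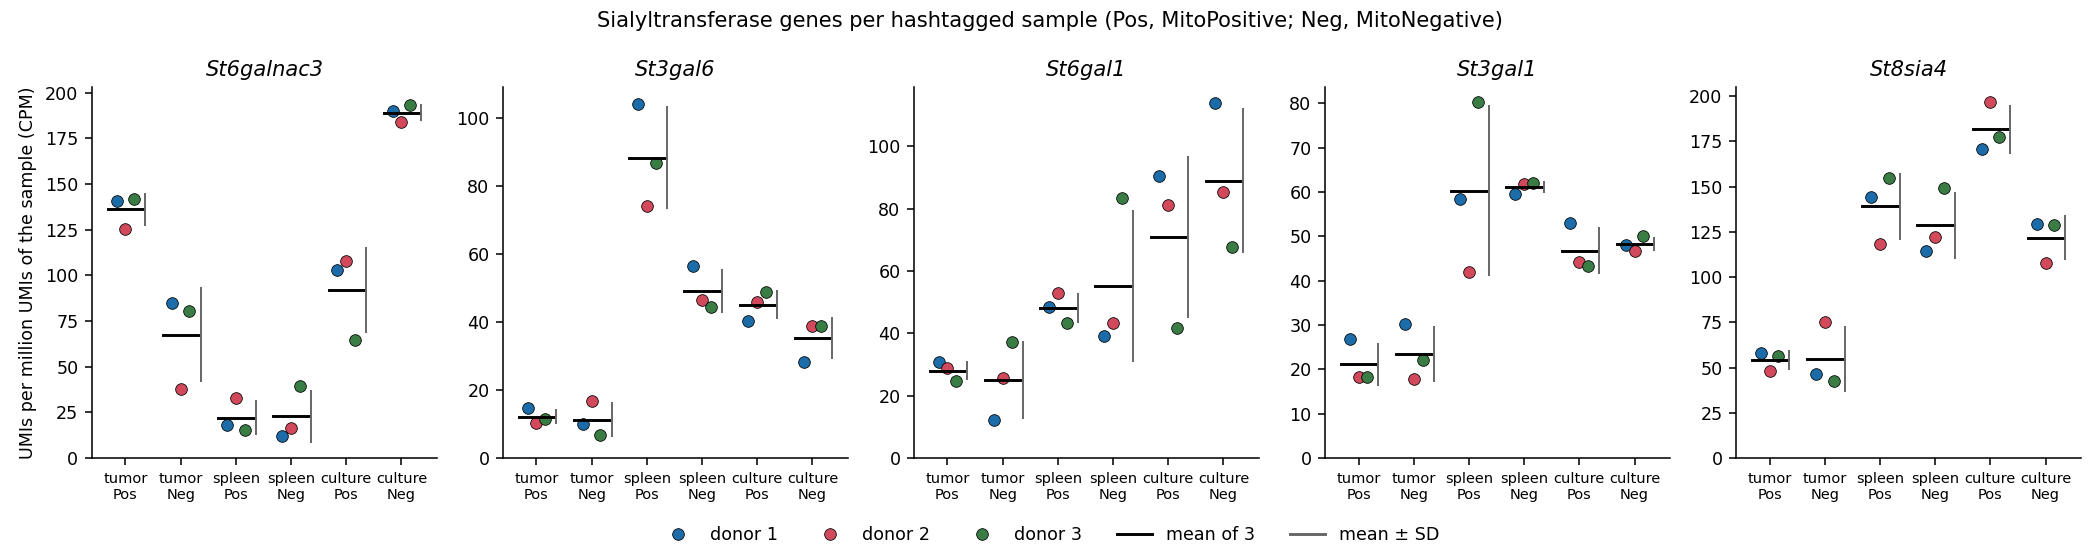
Level of each of the 5 genes (CPM, vertical axis) in every hashtagged sample, by group on the horizontal axis; points are donors, black lines the mean of 3 and grey lines the SD. St6galnac3 averages 189.1 ± 4.58 CPM in culture MitoNegative samples and 22.2 ± 9.41 CPM in spleen MitoPositive samples, whereas St3gal6 averages 12.1 ± 2.18 CPM in tumor MitoPositive and 88.2 ± 15.1 CPM in spleen MitoPositive samples.

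A week after transfer the arms were compared again in the spleen. There St3gal6 was the 1 member called, with a mean in MitoPositive cells 1.80 times that in MitoNegative cells, beside 4.55% of 11905 genes called. It stood at 104.1, 73.99 and 86.6 CPM in MitoPositive samples of donors 1, 2 and 3, against 56.5, 46.5 and 44.3 CPM in MitoNegative samples. The groups did not overlap, and the value was higher in 3 of 3 donors. The log2 fold change was 0.81 ± 0.15 with an edgeR adjusted p of 0.00899. Without donor 1 it was 0.78 ± 0.23 with an adjusted p of 0.297, in a fit that called 18 genes in all where the full fit called 542.

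St8sia4 stood at 144.2, 118.4 and 154.6 CPM in spleen MitoPositive samples, against 114.2, 122.3 and 149.5 CPM in spleen MitoNegative samples, with overlapping groups and a log2 fold change of 0.10 ± 0.16. St3gal1 stood at 58.5, 41.999 and 80.4 CPM in MitoPositive samples, against 59.6, 61.9 and 62.1 CPM in MitoNegative samples, a log2 fold change of -0.20 ± 0.16. The 3 MitoPositive values of St3gal1 spread more widely than the 3 MitoNegative ones, and the highest belongs to the sample of 49 cells, with 26 UMIs of the gene. St6gal1 stood at 48.5, 52.95 and 43.3 CPM in MitoPositive samples, against 39.3, 43.2 and 83.3 CPM in MitoNegative samples, a log2 fold change of 0.05 ± 0.23. The high MitoNegative value belongs to donor 3, the sample with the high sum of B cell markers, and without the clusters led by genes of other cells it was 75.5 CPM.

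St6galnac3 was low in the spleen, at 18.2, 32.9 and 15.5 CPM in MitoPositive samples, against 12.3, 16.6 and 39.5 CPM in MitoNegative samples. Donors 1 and 2 were higher in the MitoPositive arm and donor 3 in the MitoNegative arm, where its MitoPositive sample rests on 5 UMIs. The log2 fold change was 0.50 ± 0.33 with an edgeR adjusted p of 0.494, and without donor 3 it was 0.91 ± 0.26 with an adjusted p of 0.0498. Without donor 2 its sign turned, at -0.13 ± 0.41.

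Of 57 list genes tested in spleen, 3 were called, all lower in MitoPositive cells and all on the list of O-glycan core and selectin ligand synthesis, of which 15 were tested. Fut7, the fucosyltransferase that completes selectin ligands after galactose has been sialylated, fell by 1.68 ± 0.22 on the log2 scale, to 11.03 to 27.8 CPM in MitoPositive samples, against 39.7 to 44.4 CPM in MitoNegative samples. Gcnt1, which starts core 2 branches of O-glycans, fell by 1.61 ± 0.25, to 9.09 ± 1.76 CPM in MitoPositive cells, against 28.9 ± 8.11 CPM in MitoNegative cells. The sulfotransferase Chst2 fell by 0.84 ± 0.20.

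Cycling genes ran the other way from day 0, with 18 of 22 S phase genes and 16 of 22 G2/M genes lower in spleen MitoPositive cells. The G2/M sums were 332.03, 397.6 and 1726 CPM in MitoPositive samples of donors 1, 2 and 3, against 2041, 1119 and 1422 CPM in MitoNegative samples, so that the MitoPositive sample of donor 3, of 49 cells, stood apart from the other two and above the MitoNegative samples of donors 2 and 3. The S phase sums did not overlap, at 535.03 to 640.6 CPM in MitoPositive and 1209 to 2288 CPM in MitoNegative samples. The cycling clusters held 2.36 to 6.12% of MitoPositive and 11.8 to 26.4% of MitoNegative spleen cells. Markers of NK and gamma delta T cells also differed, 3 of 5 being higher in MitoPositive cells, with sums of 199.1 to 253.6 CPM in MitoPositive and 108.2 to 202.8 CPM in MitoNegative samples; their part in the result was not tested. Without the cycling clusters the log2 fold change of St3gal6 was 0.72 ± 0.14, with an edgeR adjusted p of 0.0205, and without donor 3 it was 0.81 ± 0.12, with an adjusted p of 0.00123.

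In the tumor the same comparison of arms called none of the 5 genes with edgeR, where 0.193% of 11905 genes were called; 1 of the 5 had an unadjusted p under 0.05, and DESeq2 called 0. St6galnac3 stood at 140.7, 125.6 and 142.05 CPM in MitoPositive samples, against 84.6, 37.7 and 80.4 CPM in MitoNegative samples. The groups did not overlap and 3 of 3 donors were higher in the MitoPositive arm, with ratios of 1.66, 3.33 and 1.77. The share of all genes without overlap was not counted, here or in the other comparisons, so a lack of overlap describes the values alone. The edgeR log2 fold change was 1.16 ± 0.32 with an unadjusted p of 0.00312 and an adjusted p of 0.187. With no count filter it was 1.20 ± 0.17 with an adjusted p of 6.58e-10, in a fit that called 356 genes in all where the fit with the filter called 23. The MitoNegative values rest on 42, 38 and 199 UMIs. Myeloid markers in tumor summed to 49.3, 54.9 and 95.05 CPM in MitoPositive samples, against 34.2, 366.2 and 177.8 CPM in MitoNegative samples of donors 1, 2 and 3. Of 12 myeloid markers tested, 9 had an unadjusted p under 0.05, edgeR called 0 and DESeq2 1, and the median log2 fold change was -1.76, beside 0.05 over all genes tested. Of 5 markers of NK and gamma delta T cells, Klre1 rose by 1.57 ± 0.22, and the list summed to 131.3 to 149.7 CPM in MitoPositive and 51.7 to 131.01 CPM in MitoNegative samples. Without the clusters led by genes of other cells the log2 fold change of St6galnac3 was 1.14 ± 0.32, with an edgeR adjusted p of 0.183.

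St3gal6 was low in tumor cells of both arms, at 14.6, 10.4 and 11.4 CPM in MitoPositive samples and 10.1, 16.9 and 6.87 CPM in MitoNegative samples, which rest on 5, 17 and 17 UMIs. Its log2 fold change was 0.20 ± 0.26. St6gal1 stood at 30.7, 28.8 and 24.8 CPM in MitoPositive samples, against 12.1, 25.8 and 37.2 CPM in MitoNegative samples, a log2 fold change of 0.04 ± 0.30. For both genes the MitoNegative samples, of 30 to 112 cells, spread more widely than the MitoPositive ones. St3gal1 had 26.8, 18.2 and 18.3 CPM in MitoPositive samples and 30.2, 17.9 and 22.2 CPM in MitoNegative samples, a log2 fold change of -0.11 ± 0.22. St8sia4 had 58.3, 48.2 and 56.3 CPM in MitoPositive samples and 46.3, 75.4 and 42.4 CPM in MitoNegative samples, a log2 fold change of 0.04 ± 0.20. Groups overlapped for each of these 4 genes. With each cell thinned to 2000 UMIs the groups of St8sia4 did not overlap, at 72.6 to 96.7 CPM in MitoPositive and 33.3 to 71.4 CPM in MitoNegative samples, a log2 fold change of 0.56 ± 0.31 (edgeR adjusted p = 0.626). Thinned St3gal6 averaged 22.3 ± 5.98 CPM in the MitoPositive arm, against 9.42 ± 12.7 CPM in the MitoNegative arm, a log2 fold change of 0.96 ± 0.65 (edgeR adjusted p = 0.707). With no cluster left out the sign of St3gal6 turned, at -0.74 ± 0.24. That setting keeps a cluster of 14 cells with the melanoma markers Dct, Tyrp1 and Mlana among its leading genes. The cluster held 100 UMIs of St3gal6, at 125.6 CPM. With no cluster left out the tumor MitoNegative sample of donor 3 held 2855132 UMIs, against 2474686. The part of that cluster in the turn was not tested. Of 57 list genes tested none was called by edgeR, 8 had an unadjusted p under 0.05, and DESeq2 called 1.

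**Figure D2:**
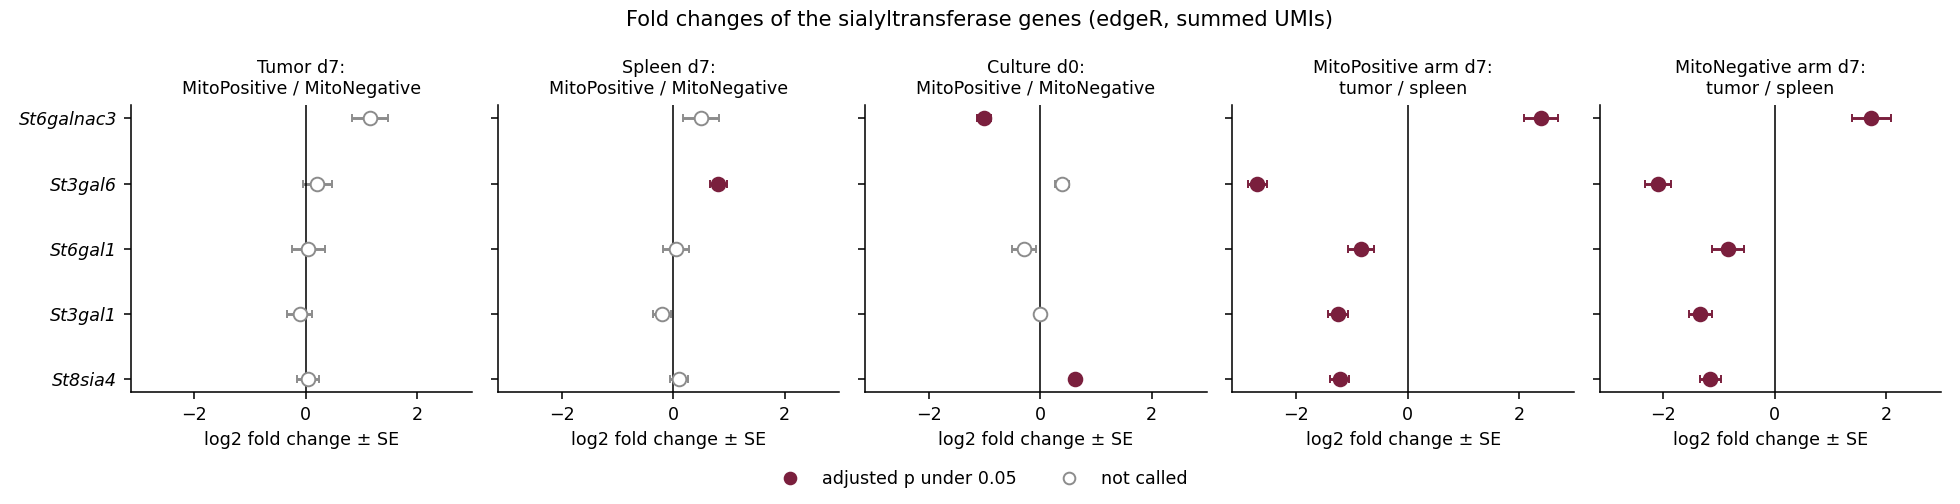
Log2 fold change ± SE (horizontal axis) of the 5 genes in 5 comparisons, from edgeR on summed UMIs; filled points passed an adjusted p of 0.05. Tumor against spleen in the MitoPositive arm runs to 2.40 for St6galnac3 and to -2.70 for St3gal6, and the MitoNegative arm has the same signs for all 5 genes.

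Tumor and spleen cells of 1 arm and donor, which carry the same host code, were compared next. In tumor, St6galnac3 was higher and St3gal6, St3gal1, St8sia4 and St6gal1 were lower in CPM, in both arms, and all 5 were called in each. The share of all 11905 genes called was 56.9% in the MitoPositive arm (28.5% higher and 28.4% lower) and 43.3% in the MitoNegative arm (20.2% higher and 23.1% lower), so a call here sets a gene little apart.

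St6galnac3 averaged 136.1 ± 9.13 CPM in tumor and 22.2 ± 9.41 CPM in spleen in the MitoPositive arm (SD, n = 3 each), a log2 fold change of 2.40 ± 0.31 (edgeR adjusted p = 2.75e-05). In the MitoNegative arm it averaged 67.6 ± 25.9 CPM in tumor and 22.8 ± 14.6 CPM in spleen, a log2 fold change of 1.74 ± 0.35 (edgeR adjusted p = 0.00125). Every donor was higher in tumor, with ratios of 7.75, 3.81 and 9.19 in MitoPositive and 6.86, 2.27 and 2.04 in MitoNegative cells, and the groups overlapped in the MitoNegative arm. With each cell thinned to 2000 UMIs the MitoNegative difference was 1.05 ± 0.48 with an edgeR adjusted p of 0.122.

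St3gal6 averaged 12.1 ± 2.18 CPM in tumor and 88.2 ± 15.1 CPM in spleen in the MitoPositive arm, a log2 fold change of -2.70 ± 0.17 (edgeR adjusted p = 8.08e-08). In the MitoNegative arm it averaged 11.3 ± 5.11 CPM in tumor and 49.1 ± 6.52 CPM in spleen, a log2 fold change of -2.09 ± 0.23 (edgeR adjusted p = 1.15e-05). Tumor and spleen samples did not overlap in either arm, and the tumor level over the spleen level was 0.140, 0.141 and 0.132 for the 3 donors in MitoPositive and 0.178, 0.363 and 0.155 in MitoNegative cells. With each cell thinned to 2000 UMIs, which sets tumor and spleen cells at 1 depth, St3gal6 averaged 22.3 ± 5.98 CPM in tumor and 93.1 ± 17.3 CPM in spleen in the MitoPositive arm, and the log2 fold change was -2.10 ± 0.22. With no cluster left out the MitoNegative log2 fold change was -1.12 ± 0.22, with an edgeR adjusted p of 0.00181. That setting keeps the cluster of 14 cells with melanoma markers, which held St3gal6 at 125.6 CPM, and its part was not tested.

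The other 3 genes were lower in tumor by smaller folds. St3gal1 averaged 21.1 ± 4.94 CPM in tumor and 60.3 ± 19.3 CPM in spleen in the MitoPositive arm, and 23.4 ± 6.26 CPM in tumor and 61.2 ± 1.37 CPM in spleen in the MitoNegative arm. Its log2 fold changes were -1.25 ± 0.17 in MitoPositive and -1.34 ± 0.21 in MitoNegative cells. St8sia4 averaged 54.3 ± 5.38 CPM in tumor and 139.1 ± 18.6 CPM in spleen in the MitoPositive arm, and 54.7 ± 18.03 CPM in tumor and 128.7 ± 18.5 CPM in spleen in the MitoNegative arm. The log2 fold changes of St8sia4 were -1.22 ± 0.17 in MitoPositive and -1.16 ± 0.19 in MitoNegative cells. For both genes no tumor sample overlapped a spleen sample of its arm.

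St6gal1 averaged 28.1 ± 3.05 CPM in tumor and 48.2 ± 4.83 CPM in spleen in the MitoPositive arm, and 25.02 ± 12.6 CPM in tumor and 55.3 ± 24.4 CPM in spleen in the MitoNegative arm. Its log2 fold change was -0.84 ± 0.24 in MitoPositive and -0.84 ± 0.28 in MitoNegative cells. The MitoNegative call of St6gal1, at an edgeR adjusted p of 0.0283, was lost without the clusters led by genes of other cells, at -0.68 ± 0.28 and an adjusted p of 0.0608, with HTODemux (adjusted p = 0.0511), with no cluster left out (adjusted p = 0.0618), without donor 1 (adjusted p = 0.0618) and without donor 2 (adjusted p = 0.0774). The MitoPositive call of St6gal1 was lost without donor 2, with an edgeR adjusted p of 0.0906.

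Tumor cells held more UMIs than spleen cells, with sample medians of 10272 to 15794 UMIs per cell in tumor and 5288 to 6276 in spleen in the MitoPositive arm, so the level in CPM and the number per cell differ. Per cell, St6galnac3 gave 2.08, 2.07 and 2.43 UMIs in tumor and 0.113, 0.182 and 0.102 UMIs in spleen MitoPositive samples. St3gal6 gave 0.215, 0.171 and 0.196 UMIs per cell in tumor and 0.650, 0.410 and 0.571 in spleen MitoPositive samples. These 2 genes differed in the same direction on both scales, with no overlap between the MitoPositive groups.

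For the other 3 the scales gave different pictures. St8sia4 had 0.872 ± 0.0864 UMIs per cell in tumor and 0.859 ± 0.186 in spleen in the MitoPositive arm, and 0.866 ± 0.0888 in tumor and 0.933 ± 0.176 in spleen in the MitoNegative arm, with overlapping samples. St3gal1 likewise had 0.336 ± 0.0519 UMIs per cell in tumor and 0.376 ± 0.149 in spleen in the MitoPositive arm, with overlapping samples. St6gal1, lower in CPM, was higher per cell in tumor MitoPositive samples, at 0.424 to 0.473 UMIs, against 0.286 to 0.303 UMIs in spleen MitoPositive samples. Whether tumor cells hold more RNA or were captured more fully cannot be told apart from these counts.

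**Figure D3:**
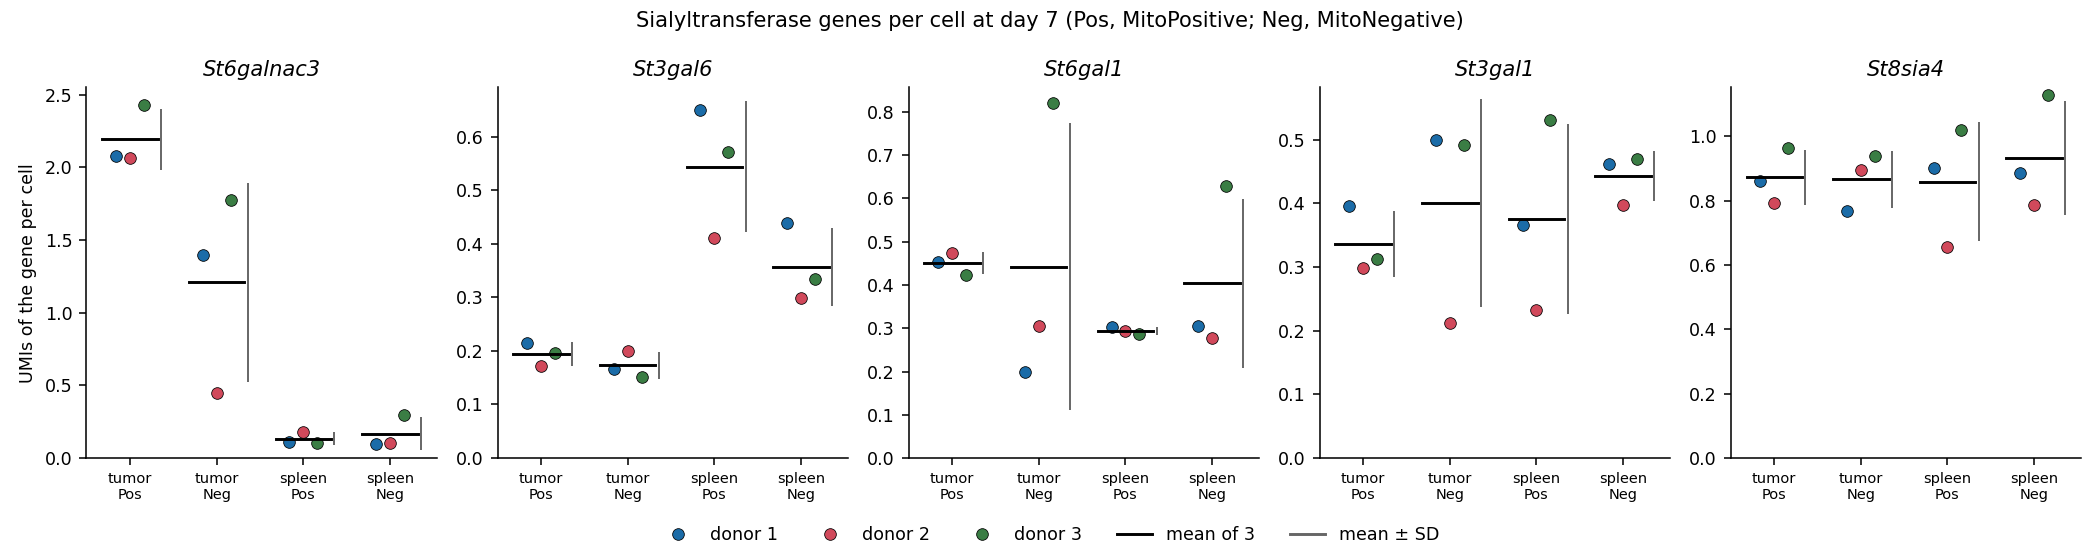
UMIs of each gene per cell (vertical axis) in every day 7 sample, by tissue and arm; points are donors, black lines the mean of 3 and grey lines the SD. St6galnac3 averages 2.19 ± 0.208 UMIs per cell in tumor and 0.133 ± 0.0435 in spleen in the MitoPositive arm, whereas St8sia4 averages 0.872 ± 0.0864 in tumor and 0.859 ± 0.186 in spleen.

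Markers of other cells moved with tissue as well. In the MitoPositive arm 5 of 7 tested B cell markers and 9 of 12 myeloid markers were lower in tumor, with sums of 63.1 to 80.5 CPM in tumor and 105.2 to 1673 CPM in spleen for B cells and 49.3 to 95.05 CPM in tumor and 161.3 to 971.1 CPM in spleen for myeloid cells. In the MitoNegative arm 5 of 7 B cell markers and 1 of 12 myeloid markers were lower, with sums of 57.4 to 153.1 CPM in tumor and 180.8 to 2736 CPM in spleen for B cells and 34.2 to 366.2 CPM in tumor and 138.1 to 308.2 CPM in spleen for myeloid cells. Of the CD4 T cell list, Ctla4 and Tnfrsf4 were called higher in tumor, of 4 tested in each arm, by 3.69 ± 0.16 and 5.34 ± 0.30 in the MitoPositive and 4.13 ± 0.15 and 5.77 ± 0.28 in the MitoNegative arm. Of 5 markers of NK and gamma delta T cells, 1 was higher and 4 lower in tumor in the MitoPositive arm, with sums of 131.3 to 149.7 CPM in tumor and 199.1 to 253.6 CPM in spleen, and 1 was higher and 1 lower in the MitoNegative arm, with sums of 51.7 to 131.01 CPM in tumor and 108.2 to 202.8 CPM in spleen. The part of the CD4, NK and gamma delta markers in the result was not tested. Without the clusters led by genes of other cells, the MitoPositive log2 fold change was 2.38 ± 0.31 for St6galnac3, -2.74 ± 0.18 for St3gal6, -1.28 ± 0.19 for St3gal1, -1.22 ± 0.15 for St8sia4 and -0.81 ± 0.23 for St6gal1, and the MitoNegative one 1.77 ± 0.36 for St6galnac3 and -2.19 ± 0.26 for St3gal6. S phase and G2/M genes also differed, 22 of 22 and 17 of 22 being higher in tumor in the MitoPositive arm. In the MitoNegative arm 4 of 22 S phase genes were higher, and of 22 G2/M genes 1 was higher and 1 lower. Without the cycling clusters the log2 fold change in the MitoPositive arm was 2.38 ± 0.29 for St6galnac3 and -2.68 ± 0.16 for St3gal6. Those clusters held 0 to 0.448% of tumor MitoPositive cells, so nearly all tumor cells of that arm stayed in the fit. The part of S phase and G2/M genes in the result was not tested.

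The rest of the family did not run with 1 sign. Of 9 other sialyltransferases tested, 2 were higher and 3 lower in tumor in the MitoPositive arm, and 2 were higher and 3 lower in the MitoNegative arm. St6galnac4 and St6galnac6, relatives of St6galnac3, rose by 0.98 ± 0.19 and 1.01 ± 0.28 on the log2 scale in the MitoPositive arm. St3gal4, which like St3gal6 acts on selectin ligands, fell by 1.06 ± 0.11, to 53.3 ± 2.83 CPM in tumor, against 120.5 ± 7.73 CPM in spleen. St8sia1, the GD3 ganglioside synthase, fell by 0.59 ± 0.22. St6galnac5 was called as lower from few counts, with 18 UMIs in tumor and 64 in spleen in the MitoPositive arm.

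Among genes of sialic acid supply, Cmah fell by 2.90 ± 0.27 in the MitoPositive arm, to 27.3 ± 5.38 CPM in tumor, against 221.03 ± 32.1 CPM in spleen. In the MitoNegative arm Cmah fell by 2.69 ± 0.33, to 28.7 ± 16.8 CPM in tumor, against 175.1 ± 43.7 CPM in spleen. Gne, which starts sialic acid synthesis, fell by 0.41 ± 0.16, to 12.05 ± 1.54 CPM in tumor, against 17.3 ± 1.19 CPM in spleen in the MitoPositive arm. Supply genes thus did not share a sign, since the sialic acid synthase Nans rose by 0.82 ± 0.20 in the same arm, to 80.4 ± 5.00 CPM in tumor, against 51.5 ± 5.39 CPM in spleen. In that arm Cmas, which makes CMP-sialic acid, averaged 39.6 ± 2.51 CPM in tumor and 47.4 ± 4.68 CPM in spleen and was not called. The Golgi transporter Slc35a1 averaged 14.99 ± 3.00 CPM in tumor and 12.6 ± 2.91 CPM in spleen and the phosphatase Nanp 7.92 ± 0.0904 CPM in tumor and 13.5 ± 4.54 CPM in spleen, neither of them called in this arm. Of the sialidases, which remove sialic acid, Neu1 fell by 0.71 ± 0.21 in the MitoPositive arm, to 11.98 ± 4.91 CPM in tumor, against 20.1 ± 4.19 CPM in spleen. Neu3 averaged 2.63 ± 0.722 CPM in tumor and 6.45 ± 5.13 CPM in spleen in that arm and was not called. Neu2 had 2 UMIs in tumor and 0 in spleen MitoPositive cells, and Neu4 had no UMI in any group.

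O-glycan genes called in the MitoPositive arm were 3 higher and 7 lower in tumor of 15 tested. The transferases Galnt10, Galnt6, Galnt7 and Galnt11, which start O-glycans, fell by 2.43 ± 0.20, 1.59 ± 0.14, 1.19 ± 0.12 and 0.82 ± 0.18, whereas Galnt3, another starter, rose by 2.20 ± 0.19. C1galt1, which makes the core galactose that St3gal1 caps, fell by 0.86 ± 0.12. Fut7 fell by 1.91 ± 0.26, to 2.88 ± 0.791 CPM in tumor, against 17.7 ± 8.95 CPM in spleen, and Chst2 rose by 1.81 ± 0.21. The sulfotransferases of tyrosine Tpst1 and Tpst2 split, Tpst1 having risen by 1.51 ± 0.40 while Tpst2 fell by 1.80 ± 0.18.

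On the N-glycan list 1 gene was higher and 6 lower of 15 tested in the MitoPositive arm. Mgat5, which adds the branch that binds galectins, rose by 1.31 ± 0.16, while the core fucosyltransferase Fut8 fell by 1.73 ± 0.16, Mgat1 fell by 0.79 ± 0.15 and Man2a1 fell by 0.84 ± 0.11. Among carriers and lectins, 2 of 10 tested were higher and 6 lower. Spn (CD43) fell by 1.55 ± 0.16, Selplg (PSGL-1, the main selectin ligand of T cells) fell by 1.18 ± 0.13 and Ptprc (CD45) fell by 0.99 ± 0.11, while Ccr7 rose by 3.58 ± 0.37.

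**Figure D4:**
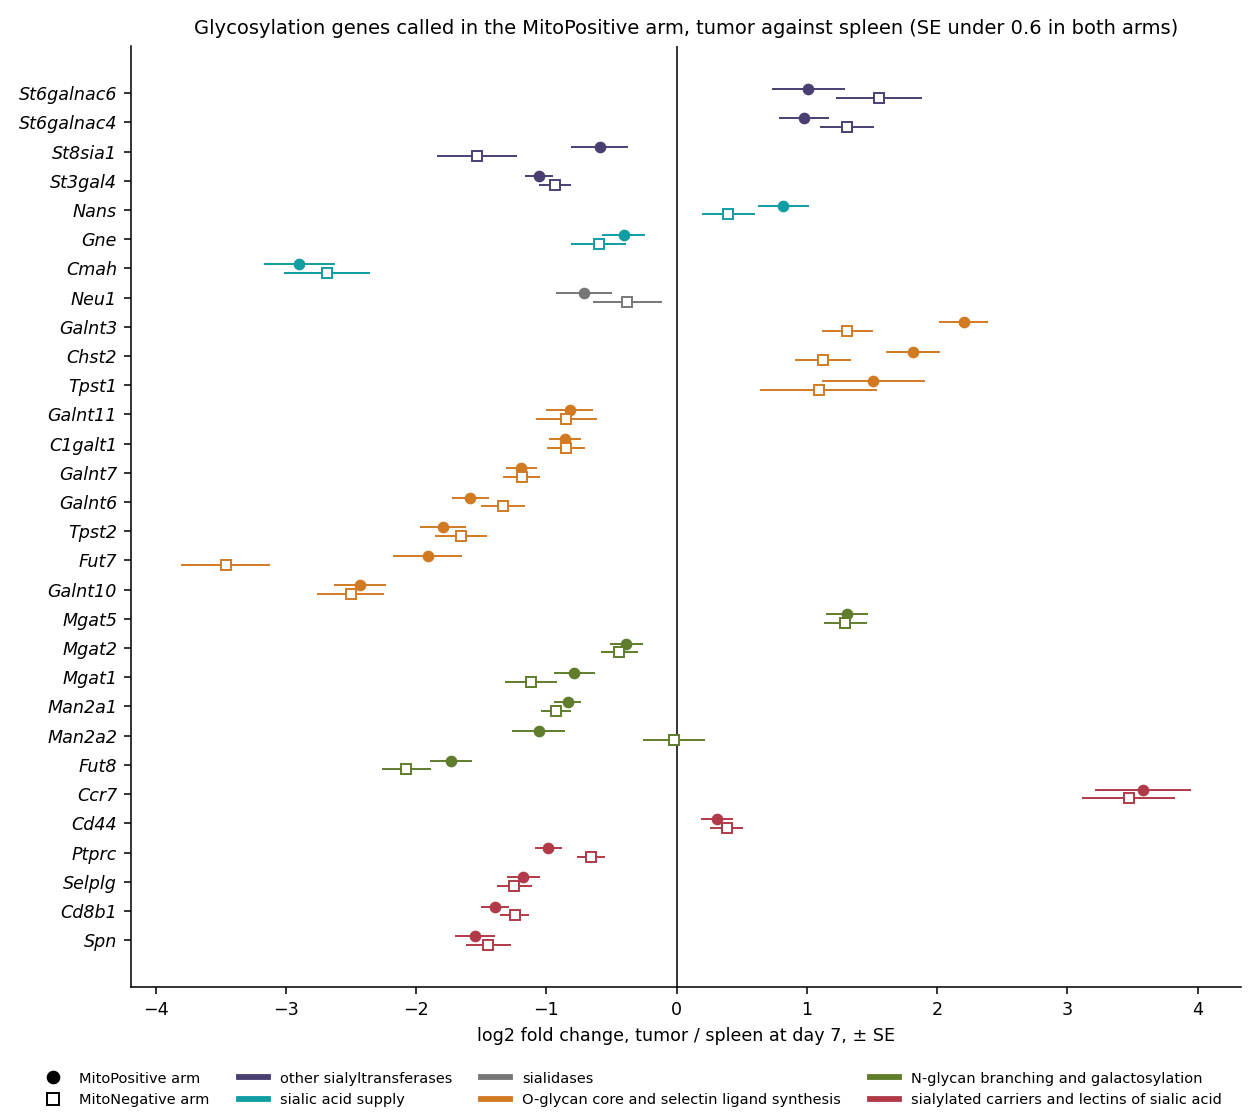
Log2 fold change of tumor over spleen ± SE (horizontal axis) for 30 list genes called in the MitoPositive arm whose SE was under 0.6 in both arms; circles are the MitoPositive and squares the MitoNegative arm, colours the lists. Cmah lies at -2.90 in the MitoPositive and -2.69 in the MitoNegative arm, and Ccr7 at 3.58 in the MitoPositive and 3.47 in the MitoNegative arm.

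Whether the arm difference depends on tissue was tested as an interaction. None of the 5 genes was called by edgeR for tumor minus spleen, 0 had an unadjusted p under 0.05, DESeq2 called 0, and 0.0504% of all 11905 genes were called. The arm difference in tumor minus that in spleen was 0.66 ± 0.45 for St6galnac3 and -0.61 ± 0.31 for St3gal6 on the log2 scale. A dependence on tissue was thus not detectable for these genes with 30 to 112 tumor MitoNegative cells a donor.

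The arm difference of St6galnac3 was negative at day 0 and positive in tumor at day 7. The interaction, which compares differences taken within libraries, was 2.15 ± 0.38 for tumor minus day 0 (edgeR adjusted p = 0.0148) and 1.52 ± 0.38 for spleen minus day 0 (edgeR adjusted p = 0.0145). St6galnac3 was the 1 member called in each, beside 0.525% of 12754 genes called for tumor and 11.0% for spleen, and both interactions share the day 0 samples. Both rest on the day 0 hashtag map used here. Neither was fitted under the other map, under which no gene was called at day 0. Without donor 2 the edgeR adjusted p of St6galnac3 was 0.194 at 2.04 ± 0.44 for tumor and 0.328 at 1.07 ± 0.49 for spleen. For spleen it was 0.107 with DESeq2 and 0.0514 with no donor block. The spleen interaction of St8sia4 was -0.53 ± 0.20 with an edgeR adjusted p of 0.0905, which became 0.0330 with no count filter, 0.0409 with HTODemux and 0.0439 without the clusters led by genes of other cells, and that of St3gal6 was 0.39 ± 0.20 with an adjusted p of 0.225.

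Over the 6 groups the genes kept different orders. St6galnac3 averaged 189.1 ± 4.58 CPM in culture MitoNegative, 136.1 ± 9.13 CPM in tumor MitoPositive and 91.9 ± 23.6 CPM in culture MitoPositive samples, with no overlap between neighbours in this order. The culture MitoPositive, tumor MitoNegative and the 2 spleen groups each overlapped with the next. St8sia4 was highest in culture MitoPositive samples, at 181.7 ± 13.6 CPM, with no overlap with spleen MitoPositive samples at 139.1 ± 18.6 CPM. The 2 spleen groups and the culture MitoNegative group of St8sia4 overlapped, as did its 2 tumor groups, which lay lowest. St3gal1 and St6gal1 were lowest in tumor, and their culture and spleen groups overlapped with their neighbours in the order. Culture against day 7 compares libraries as well as days and was given no test.

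The level of each gene was also taken in cell clusters, made per day from these cells and described with no test. At day 0, St6galnac3 reached 335.7 CPM and St6gal1 187.7 CPM in a cluster of 400 cells, 17% of them MitoPositive, and St3gal6 was 19.5 CPM there. The leading genes of that cluster include Klf3, Dapl1 and Klf2, and also St6galnac3 and St6gal1 themselves. In the day 0 cluster of 1187 cells led by Samd3, Ccr2 and S100a4, 61.0% of them MitoPositive, St3gal6 was 76.9 CPM, St8sia4 182.8 CPM and St6galnac3 84.2 CPM. St3gal6 is itself among the leading genes of that cluster. St6galnac3 and St3gal6 had their highest levels in different clusters of the culture, each in a cluster that has it among its leading genes.

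At day 7 the cluster of 1253 cells with Nrgn, Spp1 and Gzmc among its leading genes was 99.9% from tumor. It held St6galnac3, which is also among its leading genes, at 151.6 CPM and St3gal6 at 6.19 CPM. The cluster of 728 cells led by Ifng, Ccl4 and Ccl3, 98.4% of them from tumor, held St6galnac3 at 20.03 CPM and St3gal6 at 28.5 CPM. The clusters differ in depth, with medians of 21361 UMIs per cell in the first and 6614 in the second. The cluster of 1046 cells with Cx3cr1, Gzma, Gzmk and Zeb2 among its leading genes, 2.10% of them from tumor and 84.6% MitoPositive, held St3gal6, 1 of its leading genes, at 143.4 CPM and St6galnac3 at 7.36 CPM. The cluster of 3373 cells led by Fut7, Gpr55 and Id3 held St3gal6 at 51.1 CPM and St3gal1 at 64.7 CPM.

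The low-depth clusters, 1867 cells at day 0 and 536 at day 7, held St8sia4 at 245.9 CPM at day 0 and 306.5 CPM at day 7. The day 0 one held St6galnac3 at 231.3, St6gal1 at 133.7, St3gal1 at 64.4 and St3gal6 at 32.6 CPM. The day 7 one held St3gal6 at 132.0, St3gal1 at 128.4, St6gal1 at 120.5 and St6galnac3 at 52.3 CPM. Low-depth clusters made up 28.3 to 42.7% of culture MitoPositive and 24.1 to 37.4% of culture MitoNegative cells. At day 7 they made up 0 to 10.6% of spleen MitoPositive, 2.18 to 7.40% of spleen MitoNegative, 0 to 0.581% of tumor MitoPositive and 0% of tumor MitoNegative cells. Without them the day 0 log2 fold change was -1.06 ± 0.15 for St6galnac3 and 0.61 ± 0.08 for St8sia4.

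**Figure D5:**
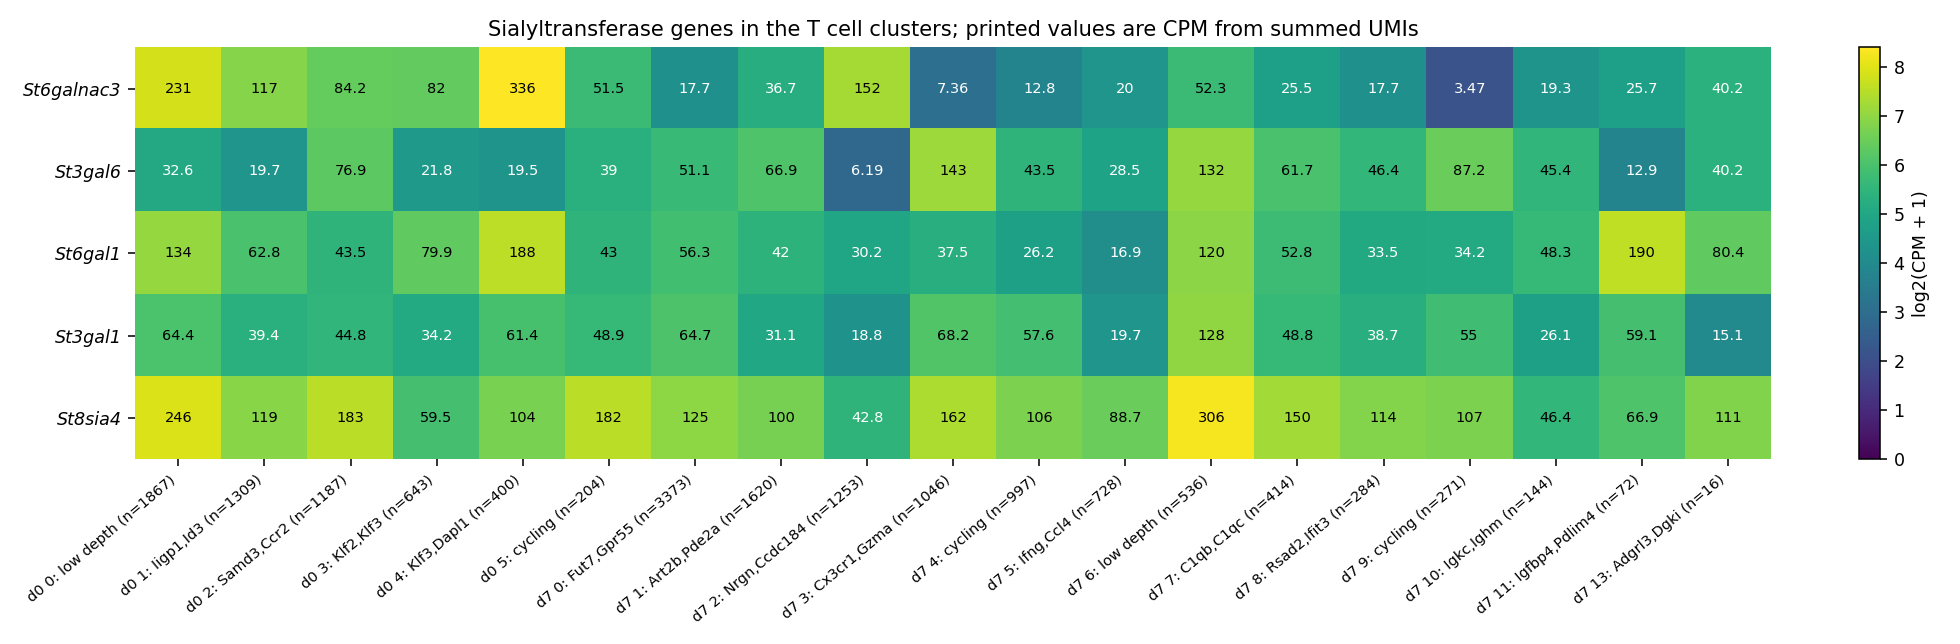
Level of the 5 genes (rows) in the day 0 and day 7 clusters with Cd3 genes in at least 50% of cells. Columns are named by number, leading genes and cells. Colour is log2(CPM + 1) and the printed values are CPM from summed UMIs. Day 7 clusters 7, 10, 11 and 13 are led by genes of other cells (C1qa, Igkc, Cd4 and Mertk among them). St6galnac3 stands at 335.7 CPM in day 0 cluster 4 and at 151.6 CPM in day 7 cluster 2, and St3gal6 at 143.4 CPM in day 7 cluster 3.

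Between the 5 genes, over the 18 samples, log2 CPM of St3gal6 ran with that of St8sia4 (Pearson r = 0.88) and of St3gal1 (r = 0.85), and against that of St6galnac3 (r = -0.65). The samples share donors, libraries and recipients and fall into tissues, so r describes these samples alone. Among 12754 genes, those with the highest r were Atg14 (0.93), Zfas1 and Sacm1l for St6galnac3, and Pglyrp2 (0.96), Laptm5 and Myo1f for St3gal6. They were Il7r (0.96), which encodes a chain of the interleukin-7 receptor, Rgs3 and Sgms1 for St8sia4. For St3gal1 they were Zfp994 (0.94), Cipc and Man2a1, and for St6gal1 Xpo7 (0.93), Zfp952 and Lcorl.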

How the data were processed

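Single-cell RNA and hashtag libraries were prepared with the Chromium Next GEM 3′ v3.1 kit, per the labels' protocols, and the UMI counts deposited by the authors are unnormalized whole numbers per gene and barcode. Cell Ranger 7.0.0, Seurat 4.0.5, GRCm38 and mm10 are named in the submitters' processing notes.

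Barcodes with at least 500 genes and under 15% mitochondrial UMIs were kept (17458), assigned where the top hashtag had at least 10 UMIs and 3 times the next, and clustered per day (scanpy 1.11.5, Leiden at resolution 0.5). In 1 of the 4 libraries (donor 2 of day 7) HTODemux gave the same call for 68.4% of barcodes, and the spleen MitoPositive sample held 1174 cells with it and 2291 without; in the other libraries the calls were the same for 88.8 to 95.7%. 2 clusters with Cd3 genes in under 50% of cells were left out. They were 28 cells led by S100a8 and S100a9 and 14 cells led by Dct and Tyrp1, with St3gal6 at 182.1 and 125.6 CPM. Clusters led by genes of other cells stayed in the main fits. They are the day 7 clusters with C1qa, Igkc, Cd4 or Mertk among their leading genes. Barcodes with several strong hashtags were dropped as doublets; no other doublet caller was run. UMIs were summed per hashtagged sample and tested with edgeR 4.0.16 (TMM, filterByExpr, quasi-likelihood test, Benjamini-Hochberg over all genes, threshold 0.05). The day 0 fit had no block, and the day 7 and combined fits had the donor, which is also the library, as a block. Replicates are cells of different donor mice, so the p-values of the day 0 fit measure the spread between 3 donors within an arm. In fits with a block, p-values measure the spread left after the donor differences it covers are removed. That spread is pooled over the samples of the fit, and recipients differ within it at day 7. The same donors gave both arms, so donor numbers pair the samples. At day 0 same-donor deviations from group means correlated at 0.067 to 0.24 and others at -0.22 to 0.031. At day 7 the ranges overlapped, at -0.055 to 0.28 for the same donor and -0.20 to 0.096 for others. Arms were taken from the deposited hashtag list. The 5 genes, the gene lists and the tests were chosen with earlier results of these data known. Named genes are the 5 members, the list genes past the threshold (up to 30 a comparison), all genes of lists of up to 6, and the 3 genes most like each member. 1 gene of the list of sialylated carriers is not reported here and enters no list count.

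Library medians of 5900.5 to 8814 UMIs per barcode limit the precision of low genes. Alternatives tried were DESeq2 1.42.0 and its size factors, no count filter, HTODemux of Seurat 5.3.0, cells thinned to 2000 UMIs, clusters left out or kept, other blocks, the other hashtag map, and each replicate left out. Thinning left out cells with under 2000 UMIs, so it changed the cells as well as their depth. In the culture MitoPositive sample of donor 1, 748 of 977 cells stayed. Fits were tested on simulated data. Promoter windows came from RefSeq and gene positions from GENCODE vM21.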

Additional observations from a re-analysis of the deposited data

Results flagged for a closer look

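The arm difference of St6galnac3 differed between days by the interaction test, at 2.15 ± 0.38 on the log2 scale for day 7 tumor minus day 0 and 1.52 ± 0.38 for day 7 spleen minus day 0. These interactions use the deposited hashtag list for day 0 and were not fitted under the other hashtag map. Among other genes of the pathway the same test of spleen against day 0 passed for 6 of 57, beside 11.0% of all genes tested, so this count does not set the pathway apart. Fut7 had -2.35 ± 0.35, Chst2 -1.68 ± 0.42 and Galnt3 -1.27 ± 0.25, all genes of O-glycan synthesis, and the core fucosyltransferase Fut8 had -0.63 ± 0.18. Cmah had 1.11 ± 0.32. St3gal5, the GM3 ganglioside synthase, had -4.00 ± 1.18 from 12 UMIs in spleen MitoPositive, 99 in spleen MitoNegative, 12 in culture MitoPositive and 2 in culture MitoNegative cells. S phase and G2/M genes moved with this interaction, 22 of 22 and 22 of 22 being lower, and without the cycling clusters the St6galnac3 value was 1.29 ± 0.35 for spleen minus day 0. Of 5 markers of NK and gamma delta T cells, 3 were higher and 1 lower in it, and their part was not tested.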

How the results depend on the processing

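Of the 5 genes, 2 were called at day 0, 4 with no count filter, 4 with the donor as replicate block, 3 without cycling clusters, 3 with cells thinned to 2000 UMIs, 2 to 3 leaving out replicates and 0 with the other hashtag map, under which Cmah turned to 0.0556 and Ccr7 to 0.0826 on the log2 scale. In tumor no count filter gave 1 call, and in spleen leaving out replicates gave 0 to 2. Of tumor against spleen, where 5 were called in each arm, the MitoPositive count was 4 without replicate 2, and the MitoNegative count was 4 with HTODemux, with cells thinned, with no cluster left out, without the clusters led by other cells, without replicate 1 and without replicate 2. For spleen minus day 0, where the main count was 1, the count was 2 with no filter, 2 with HTODemux, 2 without the clusters led by other cells (chosen after seeing the data), 0 with DESeq2, 0 with no replicate block, and 0 to 1 leaving out replicates; for tumor minus day 0 that range was 0 to 1. The replicate block changed no other count of members called. The other hashtag map was tried for the day 0 comparison alone and not for the interactions with day 0. Over all genes, calls at day 0 were 1059, with a range over the alternatives of 0 (other hashtag map) to 2295 (with donor as replicate block). They were 23 in tumor, with 2 (without replicate 2) to 356 (no count filter), 542 in spleen, with 18 (without replicate 1) to 1065 (without replicate 3), 6775 for tumor against spleen in the MitoPositive arm, with 3926 (cells thinned to 2000 UMIs) to 7339 (MitoPositive samples alone, replicate block), and 5150 in the MitoNegative arm, with 1846 (cells thinned to 2000 UMIs) to 5745 (without cycling clusters). For the interactions they were 6 for tumor minus spleen, with 0 (no cluster left out) to 567 (no count filter), 1408 for spleen minus day 0, with 352 (without replicate 2) to 1707 (without clusters led by other cells), and 67 for tumor minus day 0, with 0 (without replicate 2) to 596 (no count filter). Without cycling clusters the calls were 623 at day 0 and 137 in spleen, and DESeq2 called 109 in tumor. Thinning moved mean levels beyond 1 SD to 113.9 CPM (St6galnac3, tumor MitoPositive), 197.8 (St6galnac3, culture MitoNegative), 22.3 (St3gal6, tumor MitoPositive), 36.2 (St6gal1, spleen MitoPositive), 65.8 (St3gal1, spleen MitoNegative, 62.6 with HTODemux), 54.9 (St3gal1, culture MitoNegative), 85.2 (St8sia4, tumor MitoPositive) and 159.9 (St8sia4, spleen MitoPositive). The causes were not tested. The 30 to 112 cells of tumor MitoNegative samples limit comparisons that use them.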
